A study of Arabidopsis thaliana with 21 samples.

Results

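The 4 genes described here encode repressors that keep embryonic traits off in Arabidopsis thaliana once a seed has germinated. They are VAL1 (AT2G30470, also named HSI2), VAL2 (AT4G32010, also HSL1), PKL (AT2G25170, PICKLE) and ASIL1 (AT1G54060). They were taken by locus from the 27789 genes measured, and each was covered by 1 probe set. The rule names loci and no level, but the genes were chosen with earlier results of these data known. All 4 stood above the signal floor of 3.47 at every stage, where the floor is the 30th percentile of all values on the log2 scale.

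Expression arrays were made from cultivar Col-0 at 7 stages with 3 biological replicates each, 21 arrays in all. The stages were mature dry seed (DS), seed after 6 h of imbibition (6H), rupture of the testa (TR), protrusion of the radicle (RP), first root hairs (RH), green cotyledons (GC) and opened cotyledons (OC). A replicate was a pool of seeds from 3 to 4 plants, from which 3000 seeds or seedlings were picked per stage. Seeds had 72 h of cold at 4 °C on wet filter paper and then constant white light at 22 °C. The cold and the 22 °C are labelled on all 21 samples alike, so whether dry seed had the cold cannot be told. The labels name no mutation, transgene or added agent and no age, and do not say what the 6 h is counted from. Every sample was a whole seed or seedling, so that fewer cells of a type and less RNA per cell cannot be told apart.

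VAL1 and VAL2 carry a B3 DNA-binding domain, a PHD-like domain and an EAR repression motif. They bind RY elements, the same sequences that the B3 activators of seed maturation bind, and bring histone deacetylase and Polycomb activities to those genes. PKL is a chromatin remodeller of the CHD3 class whose mutants keep embryonic character in the primary root and fail to switch off LEC1. ASIL1 is a trihelix factor that binds GT elements next to RY elements in promoters of seed protein genes. Seedlings without these repressors turn on genes of seed maturation after germination.

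Marker genes of the labelled stages had their high levels at those stages. The 3 dry seed markers had a median level of 11.62 at DS and 4.95 at OC, the 4 green seedling markers 4.02 and 11.1, and the 4 root hair markers 4.06 at RP and 8.34 at RH. Of 9 endosperm markers 8 were under the floor from TR to OC, and the other, EPR1, went from 11.86 at DS to 6.66 at OC. Of the 8 seed coat markers 3 were under the floor at DS, and their summed level went from 7.11 to 7.13 at DS up to 8.58 to 8.69 at OC (log2 of the sum). MUM2 went from 3.35 at DS to 6.82 at OC, TTG2 from 3.36 to 6.39 and MUM4 from 5.69 to 7.24. BAN, a defining marker, was at 3.62 at DS and 2.62 at OC. PRX36 (AT3G50990) went from 4.1 to 3.05, TT12 from 3.62 to 3.2, TT2 from 3.81 to 3.61 and TT10 from 3.43 to 3.73. The median level of the seed coat markers was 3.62 at DS and 3.67 at OC, near the floor. The mean correlation of an array with the other arrays of its stage, across genes, was lowest for DS replicate 2 (0.982) and OC replicate 2 (0.983), and between 0.986 and 0.994 for the others. Without both arrays VAL1, VAL2, PKL and ASIL1 kept their calls except the rise of PKL from DS to 6H (adjusted p = 0.079) and 3 steps of VAL2 given below.

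Changes are given on the log2 scale as the later stage mean minus the earlier one, with the standard error from 1 limma model over all genes and n = 3 per stage. A gene rose or fell where its Benjamini-Hochberg adjusted p, taken over the 27789 genes, was under 0.05.

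Over the 7 stages all 4 genes changed by limma's F test, as did 86.6% of all genes. VAL1 had the widest range of stage means at 1.33 (adjusted p = 6e-08). The range was 0.98 for PKL (adjusted p = 4e-07) and 0.94 for VAL2 (adjusted p = 5.3e-06). ASIL1 spanned 0.36 (adjusted p = 0.018), and its F test did not pass without DS replicate 1 (adjusted p = 0.053) or without DS replicate 3 (adjusted p = 0.051). All 4 ranges lay below the median of all genes, that of VAL1 near it and that of ASIL1 far below. The median range of all genes was 1.47, and 3.6% of genes had a smaller range than ASIL1, 31.1% a smaller range than VAL2, 32.8% than PKL and 45.3% than VAL1. Only VAL1 met a range of at least 1 beside the F test, which 66.4% of all genes did.

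**Figure D1:**
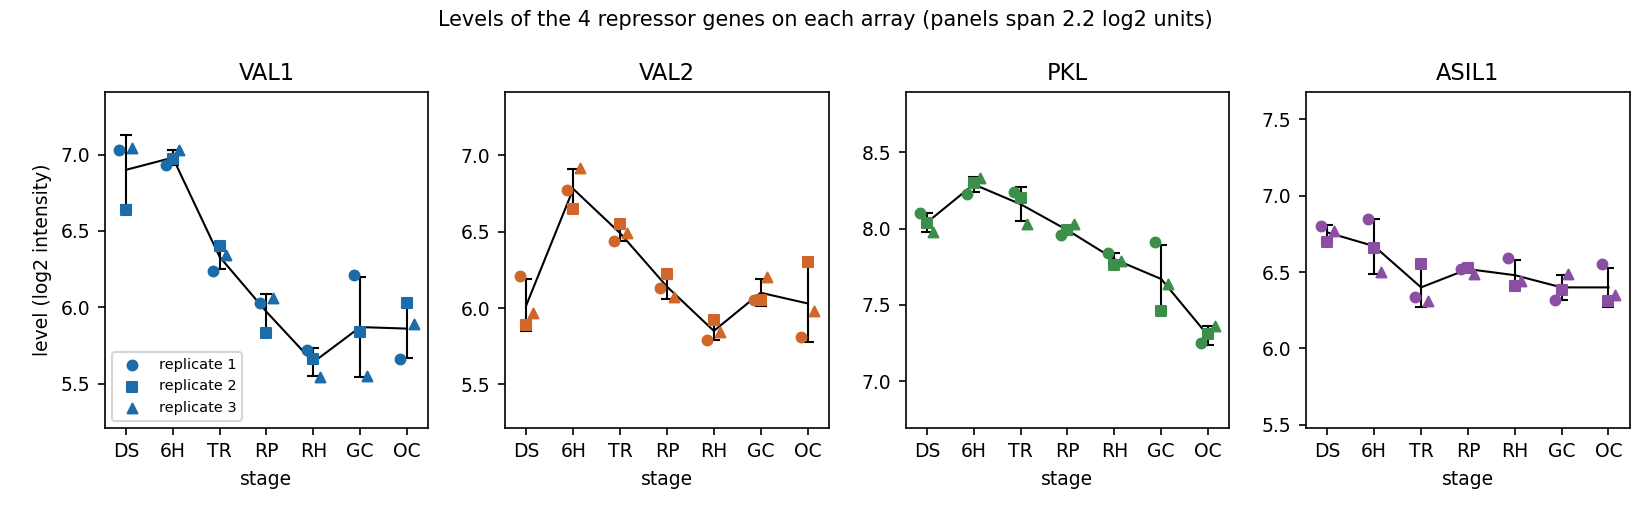
Level on the log2 scale (y axis) of VAL1, VAL2, PKL and ASIL1 at the 7 stages (x axis). Points are single arrays, the line joins stage means and bars are the SD of 3 arrays. VAL1 lies highest at DS and 6H, VAL2 peaks at 6H, PKL is lowest at OC, and ASIL1 stays within 0.36 between its stage means.

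VAL1 was highest in dry and imbibed seed and lower from testa rupture on. Among RP, RH, GC and OC no difference passed. Its levels were 7.03, 6.64 and 7.04 on the 3 DS arrays and 6.93, 6.97 and 7.03 at 6H. At TR they were 6.24, 6.4 and 6.34, at RP 6.03, 5.83 and 6.06, and at RH 5.72, 5.66 and 5.54. The arrays from 6H to RH thus form a descending series in which the 3 arrays of each stage lie below all 3 of the stage before. In these 3 steps 30.4%, 19% and 23.5% of all genes had such lower arrays. At GC the levels spread over 6.21, 5.84 and 5.55 (SD 0.33), and at OC they were 5.66, 6.03 and 5.89, so that these stages overlap each other.

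The level of VAL1 fell by 0.65 ± 0.15 from 6H to TR (adjusted p = 0.00097), a 1.57-fold drop. The following steps, at -0.35 ± 0.15 from TR to RP and -0.33 ± 0.15 from RP to RH, did not pass (adjusted p = 0.12 in both). Over the whole span to OC VAL1 fell by 1.04 ± 0.15 (adjusted p = 2.2e-06), which is 2.06-fold, and its arrays at the 2 stages did not overlap. It was the only gene of the 4 with a fall of at least 2-fold over that span, and 21.6% of all genes had one. In DS the lowest array was replicate 2, and without DS replicate 2 and OC replicate 2 the fall was 1.26 (adjusted p = 1.2e-06). The change from DS to 6H was 0.07 ± 0.15 (adjusted p = 0.66, 95% interval -0.24 to 0.38), and it was -0.06 without DS replicate 2.

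In the order of its stage means, 6H, DS, TR, RP, GC, OC and RH, only the neighbours DS and TR differed past the threshold for VAL1. The gap between them was 0.58 ± 0.15 (adjusted p = 0.0018), and 40% of all genes fell between those stages. The summed level of the 9 endosperm markers was also lower after DS, from 11.8 to 12.05 on the DS arrays, 9.74 to 9.91 at TR and 7.2 to 7.67 at OC (log2 of the sum). EPR1 carried most of it, from 11.86 at DS to 9.72 at TR and 8.43 at RH. Its part in the decline of VAL1 was not tested.

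VAL2, the closest relative of VAL1, followed another course: it started low in dry seed, peaked at 6H and was lower again at RH. Its levels on the 3 DS arrays were 6.21, 5.89 and 5.97, and at 6H 6.77, 6.65 and 6.92, with no overlap. At TR they were 6.44, 6.55 and 6.49, at RP 6.13, 6.22 and 6.07, and at RH 5.79, 5.92 and 5.84. Each of these stages lay wholly below the one before, as for VAL1. The GC arrays at 6.05, 6.05 and 6.2 lay above all RH arrays, and the OC arrays spread over 5.81, 6.3 and 5.98 with replicate 2 the highest.

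From DS to 6H VAL2 rose by 0.76 ± 0.12 (adjusted p = 1.5e-05), or 1.69-fold. The 3 descending steps were each near the threshold: -0.29 ± 0.12 from 6H to TR (adjusted p = 0.052), -0.35 ± 0.12 from TR to RP (adjusted p = 0.055) and -0.29 ± 0.12 from RP to RH (adjusted p = 0.087). All 3 passed without OC replicate 2, with adjusted p = 0.025, 0.026 and 0.046. That array belongs to none of these steps, and the changes themselves stayed the same without it. On omission of 1 array at a time, the 3 steps passed in 5, 4 and 1 of 21 fits. Arrays wholly below those of the stage before were found for 30.4%, 19% and 23.5% of all genes in these 3 steps. No neighbours in the order of VAL2's stage means (6H, TR, RP, GC, OC, DS, RH) differed past the threshold, although the ends of that order lay 0.94 apart. Between DS and OC the difference was 0.00 ± 0.12 (adjusted p = 0.97, 95% interval -0.25 to 0.26), and it was -0.13 without OC replicate 2. That comparison depended on the scaling: it was -0.53 on median-centred arrays (adjusted p = 0.0012), the only 1 of 31 alternatives in which it passed. Its sign turned in 7 of the 31, some of them by small shifts from 0.00.

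The difference between VAL1 and VAL2 within an array, which a shift of the whole array leaves as it is, changed over the stages (F = 12.8, permutation p = 0.00071, and 0.00071 after adjustment over the 6 pairs of the 4 genes). With the mean at DS set to 0, it lay from -0.13 to 0.19 on the DS arrays and from -0.77 to -0.56 at 6H. At TR it lay from -1.08 to -1.02 and at OC from -1.14 to -0.97. VAL1 minus VAL2 was thus -1.05 at TR and -1.05 at OC against DS. When the arrays were quantile normalized again, it was -0.53 at 6H (-0.69 as deposited) and -0.93 at OC. The GC arrays spread most, from -1.54 to -0.72.

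**Figure D2:**
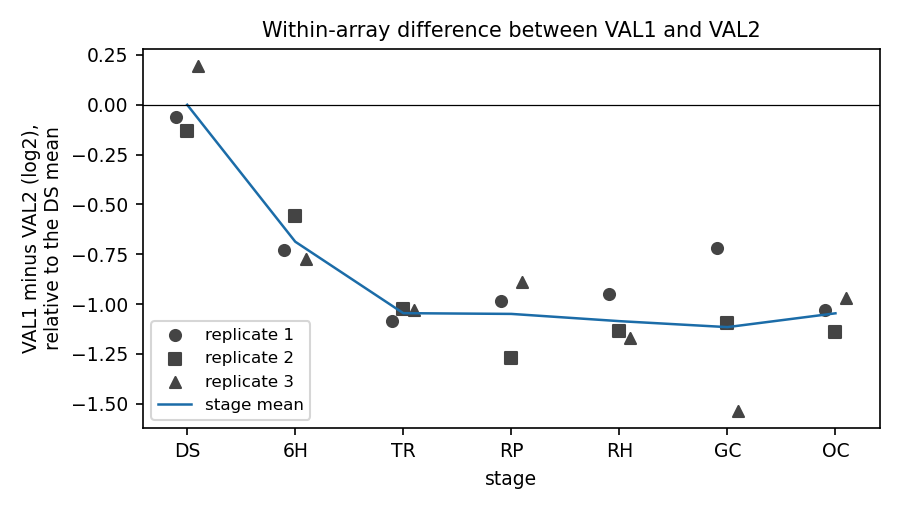
Level of VAL1 minus level of VAL2 on the same array, on the log2 scale and relative to the DS mean (y axis), at the 7 stages (x axis). Points are arrays and the line joins stage means. All arrays after DS lie below the 3 DS arrays, and from TR on the stage means stay between -1.05 and -1.12.

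PKL was high throughout, with a shallow maximum at 6H and its lowest levels in seedlings with opened cotyledons. The DS arrays stood at 8.1, 8.04 and 7.98, and the 6H arrays at 8.23, 8.3 and 8.33, just above them. At TR the levels were 8.24, 8.2 and 8.03, at RP 7.96, 7.99 and 8.03, and at RH 7.84, 7.76 and 7.79. RP and RH did not overlap, and the lowest TR array and the highest RP array both stood at 8.03. The GC arrays were spread over 7.91, 7.46 and 7.64, and the OC arrays at 7.25, 7.31 and 7.36 lay below every other array of the series.

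Between dry seed and OC PKL fell by 0.74 ± 0.1 (adjusted p = 2.1e-06), or 1.67-fold. The fall of 0.36 ± 0.1 from GC to OC passed (adjusted p = 0.0098), and it was the only gap between neighbouring levels of PKL that did. That step was -0.25 (adjusted p = 0.076) without GC replicate 1, whose level was the highest of its stage. On arrays centred on reference genes it was -0.14 (adjusted p = 0.39). The rise of 0.24 ± 0.1 from DS to 6H lay at the threshold (adjusted p = 0.044, 95% interval 0.03 to 0.46). It was lost on omission of any 1 of 12 of the 21 arrays (adjusted p from 0.05 to 0.12, the last without DS replicate 3), and it was -0.12 on median-centred arrays (adjusted p = 0.34). Steps from 6H to GC changed PKL by -0.13 to -0.2 each, and none of them passed.

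ASIL1 was nearly level. Its DS arrays stood at 6.8, 6.7 and 6.77 and its 6H arrays at 6.85, 6.66 and 6.5, so that these stages overlap. The levels were 6.34, 6.55 and 6.31 at TR, 6.52, 6.53 and 6.49 at RP, and 6.59, 6.41 and 6.44 at RH. They ended at 6.32, 6.38 and 6.49 at GC and 6.55, 6.31 and 6.35 at OC. All arrays from TR on lay below the 3 DS arrays.

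Between dry seed and OC ASIL1 fell by 0.35 ± 0.11 (adjusted p = 0.0055), or 1.28-fold, and on arrays centred on reference genes the change was -0.15 (adjusted p = 0.21). It was -0.33 (adjusted p = 0.027) without DS replicate 2 and OC replicate 2. The step from 6H to TR was -0.27 ± 0.11 (adjusted p = 0.044). Its arrays overlapped, and it was lost on omission of any 1 of 11 arrays (adjusted p from 0.051 to 0.23, the last without 6H replicate 1). In no other step did ASIL1 pass, with changes from -0.09 to 0.12 and 95% intervals that reached from -0.31 to 0.34. No neighbours in the order of its stage means differed past the threshold.

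Counted by comparison, 2 of the 4 genes rose from DS to 6H (VAL2 and PKL) and none fell, while 29.6% of all genes rose and 40% fell. From 6H to TR 2 fell (VAL1 and ASIL1) and none rose, and all 4 had a lower mean at TR. Of all genes 22.2% rose and 26.2% fell in that step. From TR to RP none of the 4 passed by limma, and 7.83% of all genes rose and 7.45% fell. From RP to RH again none passed, beside 11.5% of all genes that rose and 11.9% that fell. From RH to GC none passed, and 10.1% of all genes rose and 10.9% fell. All these shares are at an adjusted p under 0.05, and all genes were not counted at an unadjusted p. At an unadjusted p under 0.05 by limma, 3 of the 4 were lower from 6H to TR (VAL1, VAL2 and ASIL1). VAL1 and VAL2 were lower at that level from TR to RP and from RP to RH, and VAL2 was higher from RH to GC (unadjusted p = 0.047).

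From GC to OC PKL alone fell, beside 16.1% of all genes that rose and 17.9% that fell. From DS to OC 3 of 4 fell and none rose, where 33.2% of all genes rose and 42.4% fell. With 4 genes, such counts do not set them apart from the rest of the genes.

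**Figure D3:**
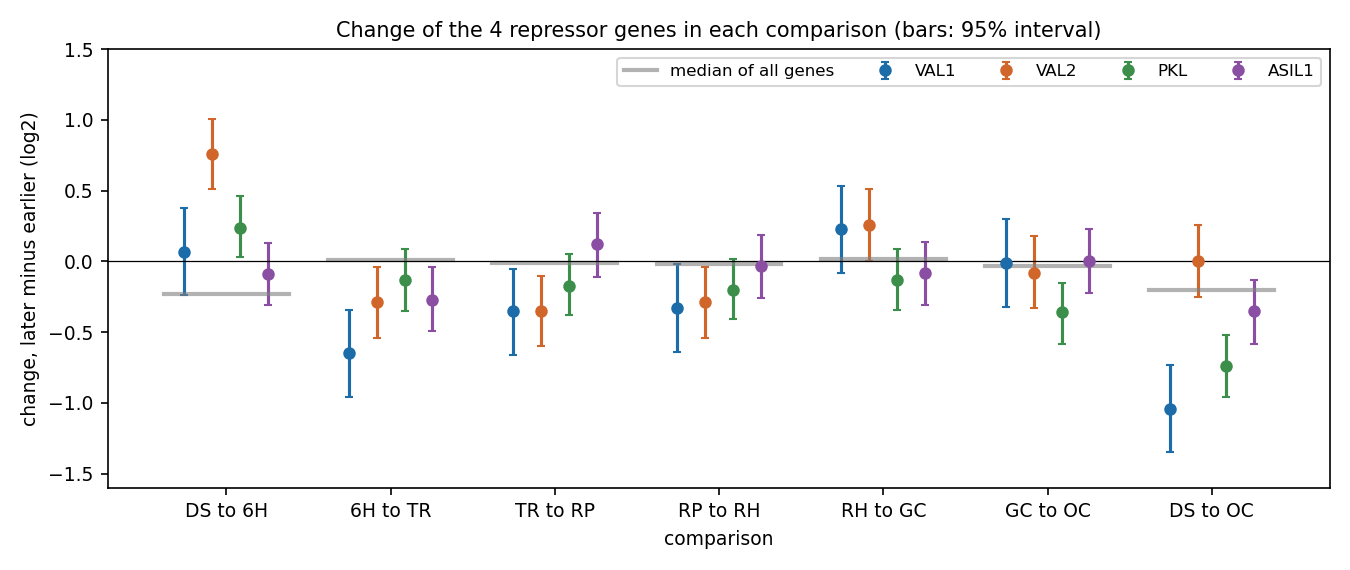
Change of VAL1, VAL2, PKL and ASIL1 in each of the 6 steps and from DS to OC (x axis), on the log2 scale, later minus earlier (y axis). Points are differences of stage means, bars their 95% intervals from limma, and grey lines the median change of all genes. From DS to OC VAL1, PKL and ASIL1 lie below 0, and VAL2 lies at 0.

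The scaling of the arrays matters for values against dry seed. The median change of all genes from DS to 6H was -0.23 as deposited and -0.03 when the arrays were quantile normalized again. It was -0.6 with each array centred on its median and -0.38 with centring on reference genes. The rise of VAL2 in that step was 0.39 on median-centred arrays, where it still passed (adjusted p = 0.012). Over the whole span the median of all genes was -0.2 as deposited and -0.74 on median-centred arrays. There VAL1 stood at -1.58, PKL at -1.27, ASIL1 at -0.89 and VAL2 at -0.53 (adjusted p = 0.0012 for VAL2). With reference genes the median of all genes was 0.00, and VAL1 stood at -0.84, PKL at -0.54, ASIL1 at -0.15 and VAL2 at 0.2. Both centrings move every gene by the same amount, so the order against the median could not change. After another quantile normalization, which could change it, the median was -0.17, VAL1 stood at -1.08, PKL at -0.58, ASIL1 at -0.32 and VAL2 at -0.15.

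Differences between 2 of the 4 genes within arrays are free of such shifts, though not of quantile normalization, and as deposited all 6 pairs changed over the stages (adjusted p from 0.0003 to 0.00071 over the 6 pairs, permutation tests over 21 arrays). With DS at 0, VAL1 stood 1.01 lower against PKL at RH and 0.3 lower at OC. VAL2 stood 0.85 higher against ASIL1 at 6H and 0.1 higher at RH. PKL stood 0.47 higher against ASIL1 at TR and 0.38 lower at OC. The 4 repressor genes therefore did not share 1 course. Pairs of other genes were not tested, and 86.6% of all genes changed over the stages by the F test. The count of pairs thus does not set these 4 genes apart. As a description, the correlation of stage means over the 7 stages ran from 0.2 for VAL2 with ASIL1 to 0.81 for VAL1 with ASIL1, and it was 0.65 for VAL1 with VAL2.

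Each of the 4 genes has relatives on the array, and 5 of them were followed. VAL3 (AT4G21550) is the third gene of the VAL family, CHR4 (AT5G44800, PKR1), PKR2 (AT4G31900, CHR7) and CHR5 (AT2G13370) are CHD remodellers, and ASIL2 (AT3G14180) is the partner of ASIL1. From DS to OC 4 of them fell, as 42.4% of all genes did, and the fifth, PKR2, lay under the floor at every stage and passed as a difference between near-background values. The median change of the 5 was -0.88 against -0.2 for all genes. With PKR2 the count was 5, and it was 3 when arrays were quantile normalized again or centred on reference genes, in a fit of the 6 arrays alone and without DS replicate 3. From 6H to TR 3 fell and none rose, where 26.2% of all genes fell.

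ASIL2 moved far more than ASIL1. Its level was 8.05 ± 0.09 (SD, n = 3) at DS, 7.46 ± 0.14 at 6H, 6.71 ± 0.12 at TR and 5.95 ± 0.11 at OC. It fell by 0.59 ± 0.1 from DS to 6H (adjusted p = 6.6e-05), by 0.75 ± 0.1 from 6H to TR (adjusted p = 5.2e-06) and by 2.1 ± 0.1 from DS to OC (adjusted p = 2.8e-13), or 4.3-fold. The last of these was -2.2 without DS replicate 2 and OC replicate 2 and passed. ASIL1 thus stood 0.98 higher against ASIL2 at TR than at DS and 1.75 higher at OC. This difference changed over the stages with F = 33.2 (permutation p = 1e-05, the smallest that 100000 resamples can give, and 6e-05 after adjustment over the 6 pairs of a gene and its relative, which were chosen after the values were seen).

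VAL3 stood at 4 ± 0.19 (SD) at DS and 4.33 ± 0.16 at 6H, and fell by 1.21 ± 0.13 from 6H to TR (adjusted p = 2e-07) to 3.13, under the floor. VAL1 and VAL3 both fell in the step that covers testa rupture, as did 26.2% of all genes, and VAL2 did not pass there. VAL3 stayed under the floor from TR on, so its later course could not be set against those of VAL1 and VAL2.

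Among the remodellers CHR4 rose by 0.63 ± 0.1 from DS to 6H (adjusted p = 2.9e-05), to a level of 7.79 that was 7.8 at TR and 6.89 at OC. CHR5 fell by 0.61 ± 0.12 from 6H to TR (adjusted p = 0.0002) and by 0.88 ± 0.12 from DS to OC (adjusted p = 1.2e-06). Without DS replicate 2 and OC replicate 2 the rise of CHR4 was 0.5 and the fall of CHR5 to OC was -1.07, and both passed. PKR2 was under the floor at every stage, from 3.29 at DS to 2.75 at RH. The difference of PKL from CHR4 changed over the stages (permutation test, adjusted p = 0.014), as did that from CHR5 (permutation test, adjusted p = 0.0061). PKL stood 0.46 lower against CHR4 and 0.14 higher against CHR5 at OC than at DS.

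**Figure D4:**
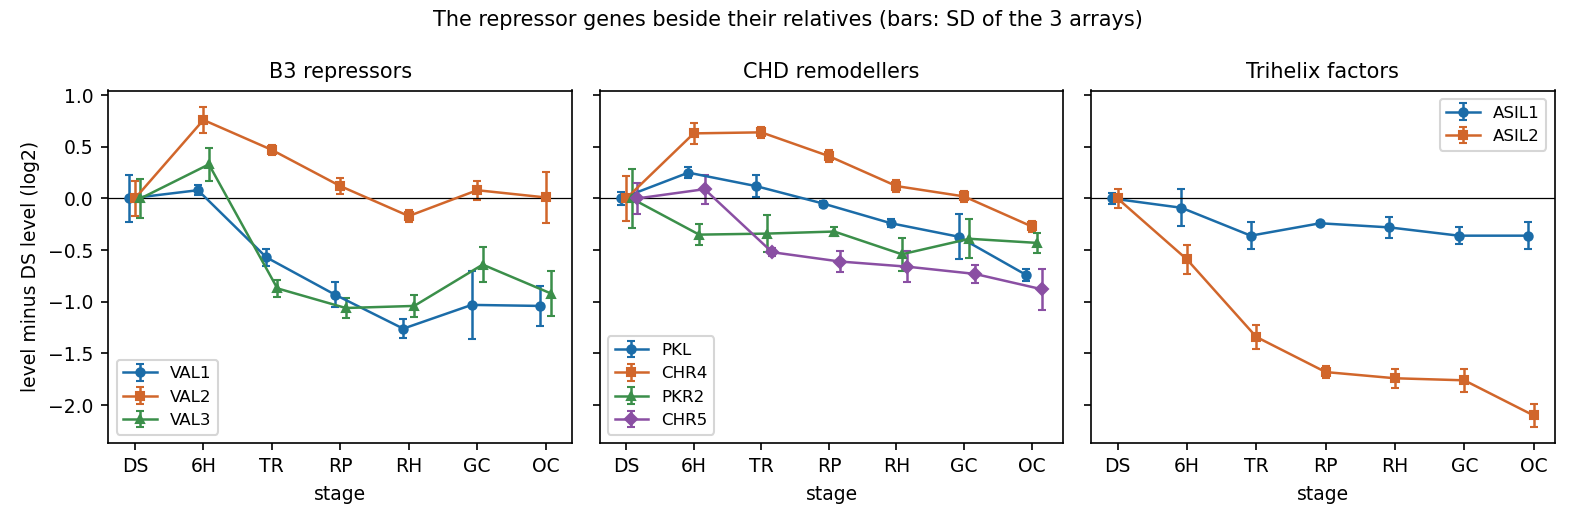
Level minus the DS level on the log2 scale (y axis) at the 7 stages (x axis) for VAL1, VAL2 and VAL3, for PKL, CHR4, PKR2 and CHR5, and for ASIL1 and ASIL2. Points are stage means and bars the SD of 3 arrays. VAL2 and CHR4 lie above 0 at 6H and TR, and ASIL2 descends to -2.1 at OC while ASIL1 ends at -0.35. VAL3 from TR on and PKR2 throughout lie under the signal floor.

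Most of the genes that these repressors are known to keep off in seedlings fell from 6H to TR. The list held 9 regulators: LEC1, its homolog NF-YB6 (L1L), the B3 activators LEC2, FUS3 and ABI3, the MADS gene AGL15, the dormancy gene DOG1, the AP2 gene BBM, and FLC, a flowering repressor that VAL1 helps to silence. From 6H to TR 7 of the 9 fell and none rose, where 26.2% of all genes fell and 22.2% rose. The median was -1.04 against 0.01 for all genes. Among those that fell, ABI3 still stood at 8.7 at TR, and AGL15 stood at 4.92 at TR against 4.98 at DS. Over the whole span 6 of the 7 that reached the floor at some stage fell and none rose, as 42.4% of all genes fell. LEC1 and LEC2 also passed, but as differences between values under the floor, which makes 8 of 9 (median -2.14). That count ran from 6 on arrays centred on reference genes to 9 on median-centred arrays. Without DS replicate 2 and OC replicate 2, LEC1 and LEC2 did not pass and AGL15 did (-0.56, adjusted p = 0.025), while FUS3 was -4.38, ABI3 -3.94 and DOG1 -5.16, all of which passed.

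FUS3 (AT3G26790) went from 7.68 ± 0.19 (SD, n = 3) at DS to 5.19 ± 0.21 at 6H and 3.07 ± 0.25 at TR, with a lowest stage mean of 2.76 at RP. It then rose by 1.14 ± 0.19 from RP to RH (adjusted p = 0.00017), where the arrays did not overlap, and stood at 4.26 ± 0.27 at GC and 3.6 ± 0.44 at OC. VAL1 and VAL2 had their lowest stage means at RH, but neither passed the test from RP to RH or from RH to GC. A link of FUS3 to either gene was not tested.

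ABI3 (AT3G24650) kept a high level longer. It stood at 9.25 ± 0.1 (SD) at DS, 9.6 ± 0.04 at 6H and 8.7 ± 0.04 at TR, and fell by 3.25 ± 0.13 from RP to RH (adjusted p = 5.5e-13) to 4. It then rose by 1.76 ± 0.13 from GC to OC (adjusted p = 3.2e-09) and reached 5.5 ± 0.34.

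DOG1 (AT5G45830) fell by 4.08 ± 0.15 from DS to 6H and by 1.59 ± 0.15 from 6H to TR (adjusted p = 4.3e-08), to 3.08. DOG1 rose by 0.51 ± 0.15 from GC to OC, to 3.67 (adjusted p = 0.015, and 0.069 without DS replicate 2 and OC replicate 2). FLC (AT5G10140) fell by 1.96 ± 0.2 from 6H to TR (adjusted p = 7.7e-08), from 7.55 to 5.59, and stayed between 4.98 and 5.15 from RP on. BBM (AT5G17430) rose by 0.62 ± 0.15 from DS to 6H (adjusted p = 0.0015) and fell by 1.68 ± 0.15 from 6H to TR (adjusted p = 1.9e-08). NF-YB6 (AT5G47670) fell by 1.21 ± 0.16 and 1.04 ± 0.16 in the same steps, to 3.03. AGL15 (AT5G13790) rose by 0.45 ± 0.19 from DS to 6H (adjusted p = 0.042, and 0.25 without both arrays) and fell by 0.5 ± 0.19 from 6H to TR (adjusted p = 0.032), with overlapping arrays in both steps, and did not pass from DS to OC (-0.39 ± 0.19, adjusted p = 0.067). LEC1 (AT1G21970) and LEC2 (AT1G28300) were under the floor at every stage, at 3.31 and 3.22 in dry seed and 2.84 and 2.7 at OC, so that a switch-off of these 2 genes could not be followed here.

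**Figure D5:**
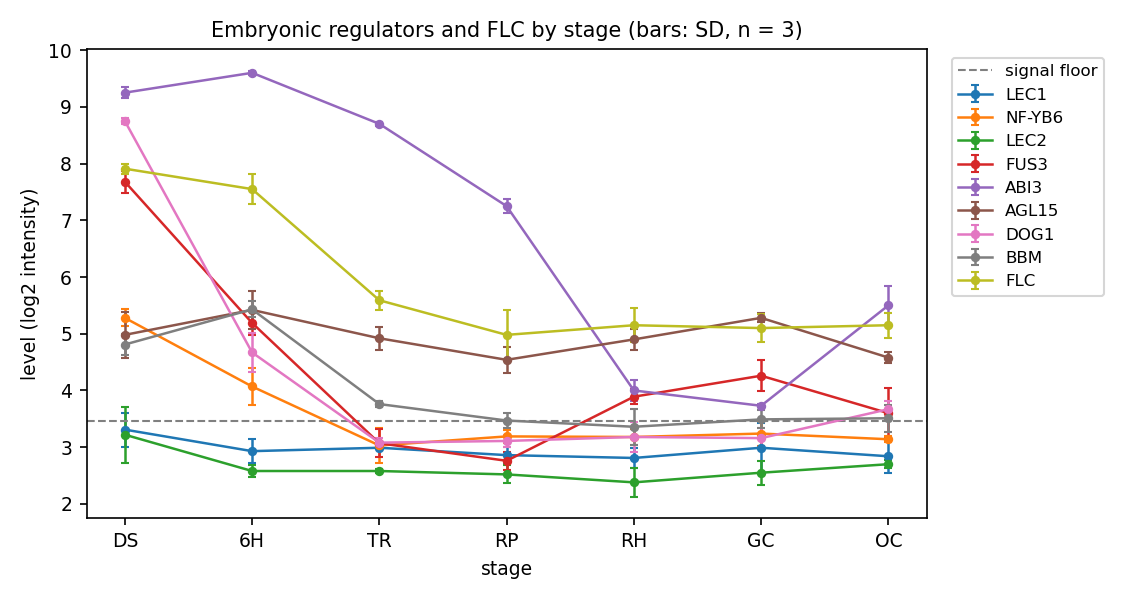
Level on the log2 scale (y axis) of 8 embryonic regulators and FLC at the 7 stages (x axis), with stage means as points, the SD of 3 arrays as bars and the signal floor of 3.47 as a dashed line. FUS3, DOG1 and NF-YB6 are under the floor at TR, ABI3 drops between RP and RH and is higher again at OC, and LEC1 and LEC2 lie under the floor throughout.

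The seed proteins that mark the embryonic programme declined over several steps up to RH, and a few rose after it. From DS to 6H 10 of the 15 fell (median -1.02, against -0.23 for all genes), where 40% of all genes fell. From RP to RH 6 fell, beside 11.9% of all genes. From RH to GC 3 rose and none fell, beside 10.1% of all genes that rose and 10.9% that fell. From GC to OC 2 rose and 2 fell, beside 16.1% of all genes that rose and 17.9% that fell. In this last step 10 of the 15 kept their call without DS replicate 2 and OC replicate 2. The list holds storage albumins, cruciferins, oleosins, Em proteins and a seed aquaporin. All 15 of its genes fell from 6H to TR, where 26.2% of all genes fell. Their median was -4.68 against 0.01 for all genes. All 15 also fell from DS to OC (median -6.44), where 42.4% of all genes fell. The largest changes over that span were -8.18 ± 0.33 for SESA4 (AT4G27170), -8 ± 0.35 for CRU2 (AT1G03880) and -7.23 ± 0.34 for OLEO4 (AT3G27660). SESA3 (AT4G27160), whose promoter ASIL1 was shown to bind, went from 11.66 ± 0.15 (SD) at DS to 7.14 ± 0.26 at TR and 4.89 ± 1.01 at OC (-6.77 ± 0.49, and -6.13 without DS replicate 2 and OC replicate 2, where all 15 genes still fell). It is named here as a target of ASIL1, after its values were seen. The median level of these genes was 11.52 at DS, 10.45 at 6H, 5.83 at TR and 4.43 at RH.

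The histone deacetylases, their co-repressors and the Polycomb proteins with which the repressors work did not move as 1 group. Of 21 such genes 15 fell and 4 rose from DS to OC (median -0.77, against -0.2 for all genes), where 42.4% of all genes fell and 33.2% rose. From DS to 6H 10 rose and 6 fell (median 0.12, against -0.23), where 29.6% of all genes rose and 40% fell. Without DS replicate 2 and OC replicate 2, 16 fell and 3 rose from DS to OC. The largest falls over the whole span were those of RING1A (AT5G44280, -4.22 ± 0.16) and RING1B (AT1G03770, -4.2 ± 0.13), which encode ring proteins of Polycomb complex 1, and of TFL2 (AT5G17690, LHP1, -2.57 ± 0.14), which binds methylated histone H3. The largest rises were those of VEL1 (AT4G30200, 2.19 ± 0.11) and VRN5 (AT3G24440, 1.48 ± 0.13), PHD proteins of the vernalization pathway, and of CLF (AT2G23380, 2.05 ± 0.16), a histone methyltransferase. FIE (AT3G20740, 0.02 ± 0.11, adjusted p = 0.9) and AT3G23060 (BMI1C, -0.19 ± 0.15, adjusted p = 0.25, under the floor) did not pass. HD1 (AT4G38130, HDA19), a deacetylase, and SAP18 (AT2G45640), a co-repressor subunit that binds EAR proteins, each changed by -0.77 ± 0.1.

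The genes with the most similar courses were taken by the Pearson correlation of the 7 stage means, among the 18463 genes with a passed F test and stage means at least 1 apart. It is a description over 7 stages and carries no test. For VAL1 they were GIP1 (AT3G13222, r = 0.996), AT1G64050, AT2G28540 and AT1G68250, and the last of these covered a range of 7.5. For VAL2 they were AT4G36520 (r = 0.991), AT4G39600, AT4G10400 and AT2G42720. PKL was matched by SMU1 (AT1G73720, r = 0.999), AT5G06410, AT2G43770 and VIP3 (AT4G29830, r = 0.997). ASIL1 was matched by AT3G49055 (r = 0.992), the histone gene RAT5 (AT5G54640, r = 0.985), AT3G54366 and AT5G21020.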

How the data were processed

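The authors deposited log2 values of 35986 probe sets on 21 arrays. They were made with RMA (background correction, quantile normalization and probe summary), per the submitters' processing notes. Its version, the array and the probe set annotation are not given in the sources used here, so no coordinates are printed. RNA (50 ng) was amplified and labelled with biotin, per the labels.

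Probe sets were averaged per locus. The 215 with values identical to those of another locus were dropped, which left 27789 genes. Symbols came from RefSeq (TAIR10.1), which held 27175 of them. Only log2 values enter the tests, so precision is limited by the number of arrays.

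Stage means were fitted in limma 3.58.1 (R 4.3.3, 14 residual degrees of freedom, default eBayes), with Benjamini-Hochberg adjustment over all genes. Pairs of genes were compared by permuting the F statistic of their difference per array (100000 resamples). The steps were tested on simulated data.

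Named genes were the 4 repressors, all relatives and embryonic regulators, the 3 largest DS to OC rises and falls and up to 2 failures of the other lists, and the 4 most similar genes each. SAP18 and HD1, SESA3 and the tests against relatives were added after values were seen. The genes and lists were chosen with earlier results of these data known. Alternatives were other scalings, filters, priors, weights, probe sets, single-step fits, a replicate block and omission of arrays. Omission of DS replicate 2 with OC replicate 2 was chosen after seeing the data.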

Additional observations from a re-analysis of the deposited data

How the results depend on the processing

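Of the changes of the 4 genes, the rise of VAL2 from DS to 6H (0.39 to 0.85), the fall of VAL1 from 6H to TR (-0.69 to -0.55) and the falls of VAL1 (-1.58 to -0.84) and PKL (-1.27 to -0.54) from DS to OC kept direction and call under every alternative run. The cause of the shifts below was not tested. From DS to 6H, VAL1 stood at -0.03 when quantile normalized again, -0.29 on median-centred arrays, -0.07 on reference-centred arrays, -0.02 with array weights and -0.06 without DS replicate 2 and OC replicate 2. In the same step PKL did not pass at 0.23, 0.1 and 0.24 (quantile, reference genes, and the 6 arrays alone, the replicate block or both arrays left out) and was -0.12 on median-centred arrays, where ASIL1 passed at -0.46. VAL2 passed from 6H to TR at -0.29 without dim genes and -0.23 with array weights, from TR to RP at -0.35 (these 2 and the 6 arrays alone) and from RP to RH at -0.29 (array weights, the 6 arrays alone), and in all 3 without both arrays. VAL1 passed from TR to RP at -0.35 with array weights and from RP to RH at -0.34 and -0.33 (array weights, the 6 arrays alone). ASIL1 did not pass from 6H to TR at -0.17 (quantile), -0.25 (reference genes) and -0.27 (trended prior, the 6 arrays alone). From GC to OC reference centring gave 0.22 for VAL1, 0.15 for VAL2 and -0.14 for PKL, array weights gave 0.02 for VAL1, median centring gave -0.07 for ASIL1, and PKL did not pass at -0.36 in the 6 arrays alone. From DS to OC VAL2 was -0.15 (quantile), -0.53 (median), -0.05 (weights) and -0.2 (both arrays left out), and ASIL1 did not pass at -0.15 (reference genes).

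Omission of 1 array at a time gave, for VAL1, -0.06 to 0.14 from DS to 6H and -0.17 to 0.17 from GC to OC. For VAL2 it gave -0.36 to -0.22 (6H to TR), -0.39 to -0.31 (TR to RP), -0.33 to -0.25 (RP to RH), -0.21 to 0.03 (GC to OC) and -0.13 to 0.11 (DS to OC). For PKL it gave 0.21 to 0.27 (DS to 6H) and -0.47 to -0.25 (GC to OC). For ASIL1 it gave -0.35 to -0.18 (6H to TR), -0.09 to 0.00 (RP to RH), -0.07 to 0.05 (GC to OC) and an F of 2.7 to 4.44. Genes that fell numbered 16777 from DS to 6H on median-centred arrays, 3164 from TR to RP with array weights (1281 to 2290 without 1 array) and 1983 from RH to GC with reference centring, which from GC to OC gave 7883 rises and 2350 falls. The relatives that fell from DS to OC numbered 3 to 5.

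Same-numbered arrays of the stages compared did not deviate together (correlations from -0.328 to 0.124), so the numbers were not treated as pairs. The replicate block changed 1 call among the 4 genes, the rise of PKL from DS to 6H (0.24, adjusted p = 0.05).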
